A study of Rattus norvegicus with 30 samples.

Results

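The comparison described here is that of rat hepatocytes exposed to dioctyl phthalate at 250 µM for 24 h with hepatocytes kept in vehicle for the same time. It was taken from the labels alone, as the 5 arrays titled for 250 µM and 24 h and the 5 titled for 1% DMSO and 24 h, which makes 10 of the 30 arrays of the series. The 10528 genes whose mean log2 signal over all 30 arrays lay above the low-signal limit were tested. That mean includes treated arrays, so a gene low in vehicle could pass through them. Among the genes called changed below, 37 had a group mean under the limit. The other 20 arrays held 1000 µM at 24 h and all 3 treatments at 48 h.

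Per the labels' protocols, the cells were purchased frozen hepatocytes of male Sprague Dawley rats, seeded on collagen-coated plates under a Matrigel layer. Dosing began on day 3 in culture. The labels give the vehicle as 1% DMSO, and the compound too was prepared in 1% DMSO. Each of the 5 cultures of a group was a separate well with its own array. The labels state neither the number of rats behind the wells nor their age, so every error below describes the spread between wells. Dioctyl phthalate is a diester of phthalic acid and a plasticiser, and the labels do not say which octyl isomer was used. The series asks, by its title, how the compound affects hepatocytes.

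Rodent liver is the classic site of response to peroxisome proliferators, among which several phthalates count. These compounds, usually after the ester is cut to a monoester, activate PPARα, a nuclear receptor that pairs with RXR and binds a direct repeat of a short hormone response half-site. Its known targets in rat liver carry fatty acids into the cell, activate them, and oxidise them in peroxisomes, mitochondria and the endoplasmic reticulum. PPARα ligands are also known to lower the transcription of inflammatory genes in liver.

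The labelled cell type was checked against markers. Of 10 listed hepatocyte markers 9 were on the array and all 9 lay far above the low-signal limit of 7.88, such as Alb with a mean log2 signal of 16 in vehicle and 15.96 at 250 µM. Of the defining markers of other liver cells, Pdgfrb (stellate cells), Ptprc (leukocytes) and Krt19 (cholangiocytes) lay under the limit in both groups. Pecam1 (endothelial cells) had a mean of 7.48 ± 1.16 (SD, n = 5) in vehicle, under the limit, and 8.26 ± 0.193 at 250 µM, above it. Des (stellate cells), Cd68 (macrophages) and Epcam (cholangiocytes) lay above it, at 8.94, 9.80 and 13.37 in vehicle and 8.94, 9.69 and 13.30 at 250 µM. In RNA from a whole well, fewer cells of a type and less RNA per cell cannot be told apart.

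No measure of array quality passed a test between the groups. The log2 ratio of 3' to 5' beta-actin control probe sets, a sign of shortened RNA when high, was 1.14 ± 0.0840 (SD, n = 5) in vehicle and 1.16 ± 0.0783 at 250 µM (exact two-sided permutation p = 0.778, adjusted p = 0.802 over 3 tests). The array median and the Gapdh ratio gave exact permutation p = 0.802 and 0.127 (adjusted p = 0.802 and 0.381), and the smallest p the design allows is 0.00794. The correlation of log2 signals across genes was 0.969 to 0.984 within vehicle, 0.975 to 0.985 within 250 µM and 0.959 to 0.974 between the groups. Across all tested genes vehicle replicate 5 lay furthest from its group, with a mean correlation of 0.971 with the others and 1337 genes more than 0.5 log2 units from their mean. For the other vehicle wells these genes numbered 700 to 1143. Vehicle replicate 1 stood apart for several genes named below, and counts that move by over 1.5 times without 1 well are given with the value without it.

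At 24 h, 2030 genes differed between 250 µM and vehicle at an adjusted p under 0.05 (limma, Benjamini-Hochberg over all tested genes), which is 19.3% of them. These genes are called changed below. The 875 that rose were 8.31% of the tested genes and the 1155 that fell were 11%. Most changes were small. The median size was 0.41 on the log2 scale among changed genes, with quartiles of 0.29 and 0.62, while 106 genes rose and 54 fell by 2-fold or more, 13 and 4 by 4-fold or more, and 4 and 1 by 8-fold or more. For 1383 changed genes, 640 up and 743 down, the 5 arrays of one group all lay beyond the 5 of the other. Such separation was found for 14.7% of all tested genes, with 6.74% above vehicle and 8% below. The median change of all tested genes was -0.03. With each array centred on its median the count was 1327 (645 up and 682 down), of which 1320 were among the 2030. With arrays centred 6.13% of the tested genes rose and 6.48% fell. The list counts below are to be read beside these shares of all tested genes.

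**Figure D1:**
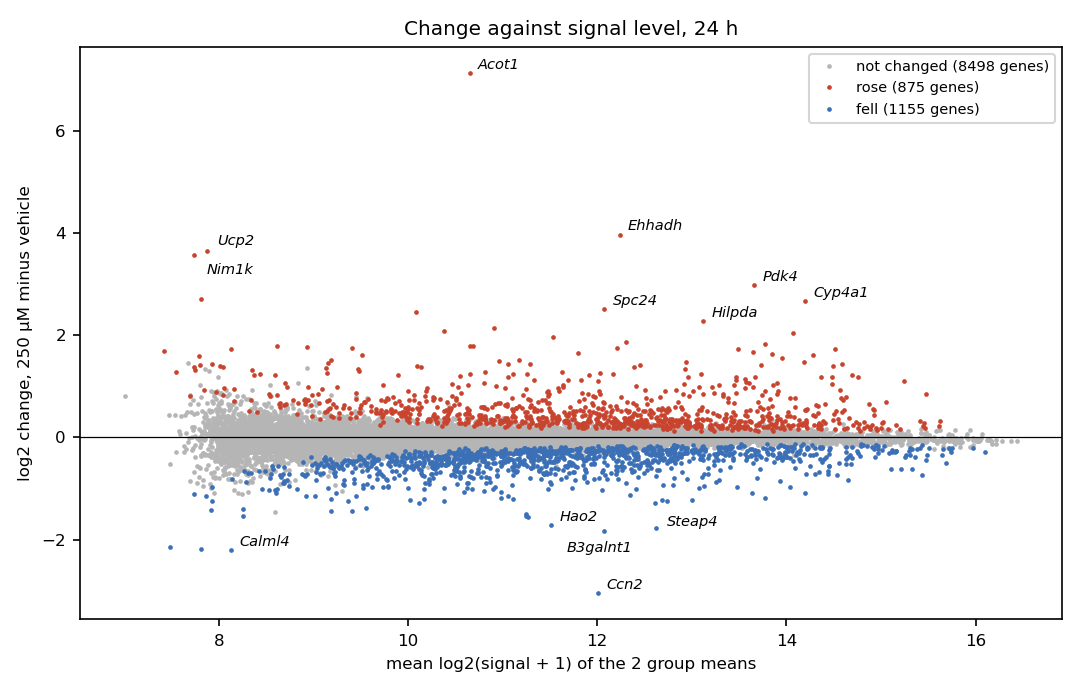
Log2 change at 250 µM against vehicle (vertical axis) over mean log2 signal (horizontal axis), 1 point per tested gene, 24 h. Red points (875) rose and blue points (1155) fell at an adjusted p under 0.05; the largest rises reach higher than the largest falls.

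Acot1 rose most. It encodes a thioesterase of the cytosol that cuts long-chain acyl-CoA into fatty acid and CoA. Its log2 signals were 7.35, 7.41, 6.71, 6.67 and 7.31 in the 5 vehicle wells and 14.24, 14.28, 14.24, 14.16 and 14.15 in the 5 wells at 250 µM. All vehicle arrays lay under the low-signal limit, so the fitted change of 7.13 ± 0.24 (SE) is given as a bound, at least 80.9-fold higher (adjusted p = 9.66e-22). Whether the probe set also reads the closely related thioesterase genes beside Acot1 was not tested. Ehhadh encodes the inducible bifunctional enzyme of the peroxisomal fatty acid spiral and had 9.98, 10.17, 10.36, 10.47 and 10.29 in vehicle and 14.17, 14.27, 14.15, 14.10 and 14.43 at 250 µM. The groups were far apart, with a change of 3.97 ± 0.14, which is 15.6-fold (adjusted p = 3.87e-21).

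Ucp2, a carrier of the inner mitochondrial membrane, lay at 5.67, 6.22, 6.03, 7.12 and 5.20 in vehicle and 9.76, 9.73, 9.75, 9.59 and 9.64 at 250 µM. The vehicle arrays were under the limit and spread widely while the treated arrays were tight, so its change of 3.64 ± 0.30 is a rise of at least 3.52-fold (adjusted p = 1.3e-11). Pdk4, the kinase that switches off pyruvate dehydrogenase, lay at 12.74, 12.33, 11.94, 11.94 and 11.91 in vehicle and 15.17, 15.19, 15.22, 15 and 15.17 at 250 µM. Its change was 2.98 ± 0.12, or 7.87-fold (adjusted p = 9.21e-20), and vehicle replicate 1 was the highest of the vehicle wells. Cyp4a1, the omega-hydroxylase of fatty acids that is a standard marker of peroxisome proliferators in rat, rose from 12.73, 12.95, 12.69, 13.13 and 12.82 to 15.59, 15.63, 15.43, 15.34 and 15.69. This was a change of 2.67 ± 0.08, or 6.38-fold (adjusted p = 1.26e-22).

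Hilpda, a small droplet protein that inhibits adipose triglyceride lipase, rose by 2.28 ± 0.08, from 11.79, 12.03, 12.26, 12.02 and 11.80 to 14.29, 14.25, 14.38, 14.19 and 14.19. Cpt1b, the muscle form of carnitine palmitoyltransferase 1, rose by 2.14 ± 0.09, from 9.997, 9.88, 9.77, 9.70 and 9.82 to 11.89, 11.89, 12.02, 11.94 and 12.16. Both were clear of overlap by more than a log2 unit. Gpd2, the mitochondrial glycerol-3-phosphate dehydrogenase that passes electrons to the respiratory chain, rose by 2.07 ± 0.13.

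Spc24, a subunit of the Ndc80 complex that ties kinetochores to microtubules, was among the 12 largest rises although few other cell cycle genes moved. Its log2 signals were 10.42, 10.97, 10.98, 11.10 and 10.64 in vehicle and 13.33, 13.38, 13.30, 13.32 and 13.34 at 250 µM, a change of 2.51 ± 0.09 or 5.7-fold (adjusted p = 1.07e-20). The treated wells agreed within 0.1 and all lay above every vehicle well. Lrrc39, a leucine-rich repeat protein known from the sarcomere of heart muscle, rose by 2.45 ± 0.09, from 9.001, 8.73, 8.83, 9.03 and 8.74 to 11.17, 11.24, 11.32, 11.48 and 11.35. A lower probe set of Lrrc39 gave 4.07 ± 0.27. The protein kinase Nim1k and the chaperone gene Dnajb3 completed the list with rises of at least 3.12-fold and 2.45-fold, their vehicle signals being under the limit on every array.

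The largest fall was that of Ccn2, a secreted matricellular protein also called connective tissue growth factor and a common readout of TGF-beta and YAP activity. Its log2 signals were 13.73, 13.53, 13.57, 13.41 and 13.42 in vehicle and 10.80, 10.55, 10.36, 10.43 and 10.30 at 250 µM. Treated wells lay below vehicle wells by more than 2 log2 units throughout, and the change was -3.04 ± 0.10, which is 8.25-fold lower (adjusted p = 2.75e-22).

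B3galnt1, a glycosyltransferase that builds the globoside sugar chain, went from 12.85, 12.99, 13.04, 13.06 and 12.98 to 11.31, 11.21, 11.28, 11.12 and 10.85, 3.55-fold lower. Steap4, a metalloreductase linked to inflammation and insulin action, went from 13.62, 13.58, 13.62, 13.50 and 13.23 to 11.78, 11.82, 11.53, 12.02 and 11.55, 3.41-fold lower. Hao2, a peroxisomal oxidase of long-chain hydroxyacids, went from 12.33, 12.37, 12.35, 12.46 and 12.35 to 10.57, 10.85, 10.74, 10.64 and 10.50, 3.27-fold lower. Their changes were -1.83 ± 0.10, -1.77 ± 0.11 and -1.71 ± 0.08, and no well of one group reached the range of the other for any of the 3.

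Sesn1, a stress-induced regulator of mTORC1, fell (-1.56 ± 0.11). Vehicle replicate 1 read 11.54 for Sesn1 and the other vehicle wells 12.12 to 12.26, and all treated wells were at 10.56 or lower. Rab11fip5, an effector of recycling endosomes, changed by -1.53 ± 0.12, Acta1, the actin of skeletal muscle, by -1.51 ± 0.15, and Pnpla3, a lipid droplet acyltransferase and lipase that is induced by feeding, by -1.44 ± 0.17. Calml4, Odad4, Tbc1d2b and Gnat1 were also among the 12 largest falls, but their means at 250 µM were under the limit, and their changes to the limit were -1.35, -1.03, -1.15 and -0.75.

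**Figure D2:**
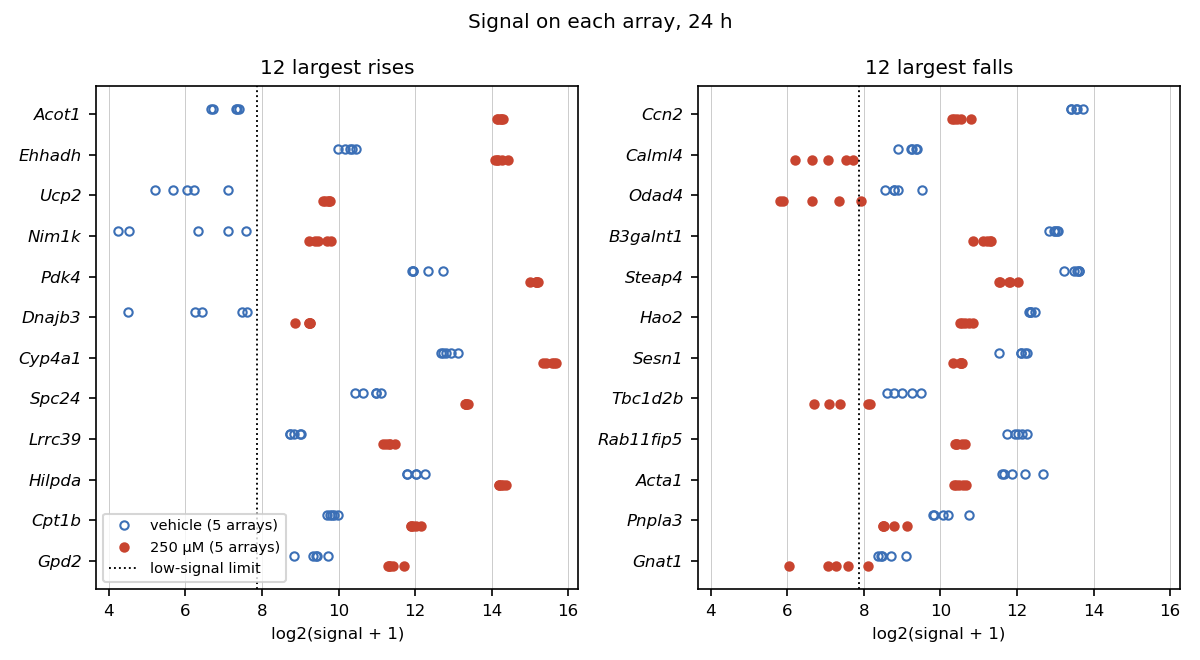
Log2 signal (horizontal axis) on each of the 10 arrays for the 12 largest rises (left) and 12 largest falls (right), open blue circles for the 5 vehicle wells and filled red circles for the 5 wells at 250 µM; the dotted line is the low-signal limit of 7.88. The groups do not overlap for any of these genes, which is how they were chosen, and the vehicle wells of Acot1, Ucp2, Nim1k and Dnajb3 lie left of the limit.

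Some genes had a dimmer probe set whose change differed by over 1.5-fold from the one used. It was larger for Acsl1 (2.74 ± 0.07), Acaa2 (1.96 ± 0.10), Cdh13 (2.01 ± 0.26) and Plin2 (0.97 ± 0.06), whose values from the brighter probe set are given below. It was smaller for Pdk4 (2.22 ± 0.10) and Sesn1 (-0.95 ± 0.17). Of the other probe sets of Pnpla3, 1 passed (-1.34 ± 0.35) and 1 did not (-0.51 ± 0.26).

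Thioesterases set the balance between acyl-CoA and free fatty acid in each compartment. Of 9 tested members 8 rose and 0 fell, with a median change of 1.33. Beside Acot1 these were Acot3 (1.79 ± 0.08) and Acot4 (1.42 ± 0.09) of peroxisomes, Acot2 (1.73 ± 0.07) of mitochondria, Acot12 (1.33 ± 0.09) and Acot7 (1.25 ± 0.09) of the cytosol, Acot8 (0.91 ± 0.07) of peroxisomes, and Acot13, for which the groups overlapped and the call was lost with arrays centred (0.28 ± 0.06). Acot2 lay at 12.98, 12.72, 12.51, 12.48 and 12.42 in vehicle and 14.34, 14.33, 14.35, 14.35 and 14.39 at 250 µM, so its treated wells agreed within 0.05 while vehicle replicate 1 was the highest of the vehicle wells.

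Peroxisomal beta-oxidation shortens very long chains and makes hydrogen peroxide. Of 16 tested genes 12 rose and 0 fell, with a median of 0.98. Import was represented by Abcd3 (1.04 ± 0.05), a transporter of acyl-CoA, and the spiral by Hsd17b4 (0.93 ± 0.07), the second bifunctional enzyme, and Ehhadh (above). The enzymes that prepare unsaturated chains rose as well, namely Eci2 (1.39 ± 0.06), Ech1 (1.23 ± 0.06) and Decr2 (1.08 ± 0.08). Hacl1, the lyase of alpha-oxidation of branched chains, rose by 1.67 ± 0.08, and its log2 signals were 12.38, 12.89, 12.84, 13.04 and 12.93 and 14.49, 14.47, 14.52, 14.39 and 14.54, far apart. Crat (1.64 ± 0.09) and Crot (1.19 ± 0.06), which hand shortened chains to carnitine, rose. Without vehicle replicate 1 the count was 10. Acox3 (0.37 ± 0.19), the oxidase of branched chains, and Phyh (0.15 ± 0.08), which begins alpha-oxidation, did not pass. After quantile normalization Phyh passed as a rise.

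Peroxins build and divide the organelle. Of 19 tested genes 8 rose and 1 fell, with a median of 0.25. Pex11a, the inducible division factor, lay at 13.22, 13.42, 13.40, 13.42 and 13.42 in vehicle and 14.41, 14.44, 14.47, 14.39 and 14.47 at 250 µM. The change was 1.06 ± 0.05 (adjusted p = 1.68e-18), and vehicle replicate 1 was the lowest. The membrane protein importers Pex3 (0.47 ± 0.08), Pex16 (0.78 ± 0.10) and Pex19 (0.75 ± 0.08) all rose, as did the membrane protein Pxmp4 (0.93 ± 0.11) and, by less, Pex2 (0.26 ± 0.06) and Pex13 (0.28 ± 0.06). Mpv17 fell (-0.35 ± 0.07). Other probe sets of Pex16 and Pex2 did not pass.

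The other oxidases of the peroxisome did not follow. Of 10 tested 2 rose and 4 fell. Hao2 and Hao1 (-0.82 ± 0.10), the hydroxyacid oxidases, and Paox (-0.72 ± 0.15), polyamine oxidase, fell. Ephx2 (0.91 ± 0.07), soluble epoxide hydrolase, and Agxt (0.56 ± 0.08), the glyoxylate aminotransferase, rose. Catalase, Cat, did not pass (0.16 ± 0.07), except after quantile normalization, where it rose.

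Omega-hydroxylation in the endoplasmic reticulum starts the breakdown of fatty acids from the other end. Cyp4a3 rose together with Cyp4a1, from 13.53, 13.63, 13.47, 13.67 and 13.92 to 15.34, 15.36, 15.42, 15.29 and 15.48, a change of 1.73 ± 0.07 with no overlap. Cyp4f1 (-0.41 ± 0.09) and Cyp4f6 (-0.34 ± 0.07), of the subfamily that also inactivates eicosanoids, fell. Of the 11 tested genes of this route 4 rose, and the other two that did, the dehydrogenases Adh4 (0.38 ± 0.11) and Aldh3a2 (0.25 ± 0.06), act downstream.

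Entry into mitochondria needs carnitine. Of 8 tested genes of the shuttle 7 rose and 0 fell, with a median of 1.16. They were the plasma membrane carnitine transporter Slc22a5 (1.28 ± 0.09), Cpt1b and Cpt1a (1.13 ± 0.14) on the outer membrane, the inner membrane exchanger Slc25a20 (0.75 ± 0.07), Cpt2 (0.81 ± 0.09) behind it, and Crat and Crot. Cpt1a, the liver form, had 11.90, 11.36, 11.07, 10.94 and 11.07 in vehicle and 12.60, 12.51, 12.21, 12.30 and 12.38 at 250 µM. Its groups did not overlap, but vehicle replicate 1 lay nearer to the treated wells than the other vehicle wells did.

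Inside mitochondria, 16 of 18 tested genes of beta-oxidation rose and 0 fell (1 without vehicle replicate 1), with a median of 0.65, smaller than that of the peroxisomal genes. The dehydrogenases rose by 0.96 ± 0.05 for very long chains (Acadvl), 1.13 ± 0.06 for medium chains (Acadm), 0.58 ± 0.06 for short chains (Acads) and 0.25 ± 0.06 for long chains (Acadl). Acadm had 12.81, 12.77, 12.82, 12.995 and 13.14 in vehicle and 14.05, 14.003, 14.06, 13.95 and 14.11 at 250 µM, with no overlap. The trifunctional subunits rose unequally, Hadha by 1.03 ± 0.06 and Hadhb by 0.57 ± 0.05, and the thiolases Acaa2 and Acat1 by 1.10 ± 0.06 and 1.02 ± 0.06. Electron transfer to the respiratory chain was represented by Etfdh (0.60 ± 0.06), Etfb (0.31 ± 0.06) and Etfa (0.24 ± 0.06). Acad9 (0.14 ± 0.07), which assembles complex I, did not pass. Among the 4 tested genes of ketone bodies Acat1, Bdh1 (0.57 ± 0.12), which reduces acetoacetate, and the monocarboxylate transporter Slc16a1 (0.30 ± 0.08) rose. The call for Slc16a1 was lost with arrays centred.

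The gate of carbohydrate into the same mitochondria moved in parts. Pdk4 rose as given above, and Pdk3 (0.18 ± 0.17) did not pass. Pdk2, the form usual in liver, fell (-0.40 ± 0.10), a call lost with arrays centred and not made by its other probe set. Pdp2, a phosphatase with the opposite action, rose (1.05 ± 0.11), as did the pyruvate carrier subunit Mpc2 (0.73 ± 0.06) and the enzyme subunit Pdhb (0.30 ± 0.05), while Mpc1 (-0.18 ± 0.08) did not pass. Mpc1 passed as a fall after quantile normalization, with the beta-actin ratio as a covariate and with only the arrays compared. Txnip, a regulator of glucose uptake and redox state, rose from 12.94, 12.89, 12.81, 12.80 and 12.88 to 14.64, 14.70, 14.66, 14.58 and 14.84, a change of 1.82 ± 0.05 (adjusted p = 1.62e-23). Pank1, which makes the precursor of CoA, rose by 1.47 ± 0.07 and Vnn1, which recovers pantothenate, by 1.25 ± 0.05.

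**Figure D3:**
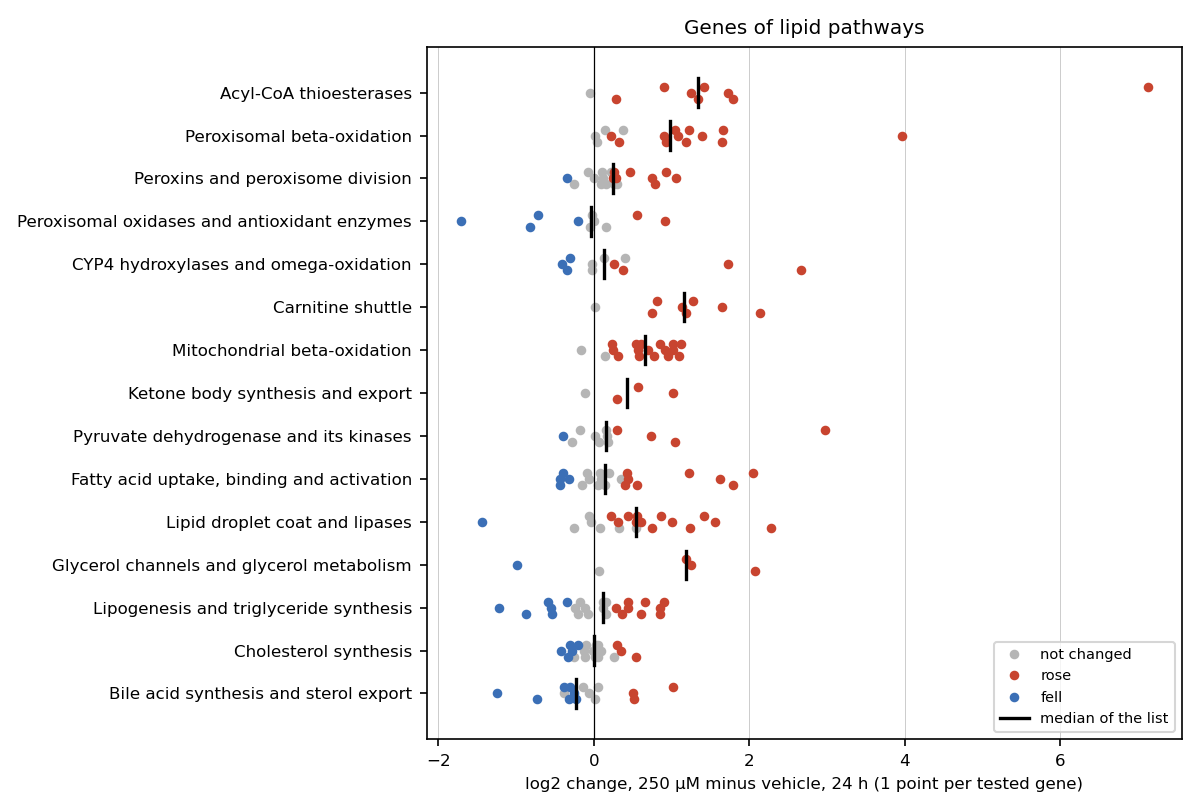
Log2 change at 250 µM against vehicle at 24 h (horizontal axis) of every tested gene in 15 lists of lipid metabolism, 1 point per gene, red for rose, blue for fell and grey for not changed, with the list median as a black line. Thioesterases, carnitine shuttle and glycerol genes have medians above 1, while synthesis, cholesterol and bile acid lists spread on both sides of 0.

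Uptake, binding and activation of fatty acids gave 8 rises and 4 falls among 21 tested genes. Fabp1, the abundant fatty acid-binding protein of liver, lay at 12.99, 13.17, 12.97, 13.10 and 12.98 in vehicle and 14.68, 14.72, 14.61, 14.55 and 14.76 at 250 µM. It was 3.08-fold higher (1.62 ± 0.05, adjusted p = 1.77e-22). Fabp3, the form of heart muscle, rose (1.79 ± 0.31) from a vehicle mean under the limit, so that it was at least 3.10-fold higher. Of the acyl-CoA synthetases Acsl1 (2.05 ± 0.07), Acsl3 (1.22 ± 0.06) and Acsl5 (0.43 ± 0.07) rose and Acsl4 (-0.39 ± 0.05), which prefers arachidonate, fell. Acsl1 lay at 13.12, 13.09, 12.99, 13.05 and 12.99 and 15.06, 15.06, 15.12, 15.05 and 15.17, and its treated wells agreed within 0.12. The uptake protein Cd36 rose by 0.55 ± 0.15, but its highest vehicle well, replicate 1 at 12.40, lay just under the lowest treated well at 12.43. Slc27a2 (0.44 ± 0.05), which takes up and activates very long chains, rose. The second probe set of Acsl5 did not pass.

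The region near the start of a gene is one of the places where PPARα with RXR can bind, and only this region was searched. Promoters from 250 bases before to 50 after the start were taken from RefSeq on build GRCr8, and searched on both strands for 2 copies of AGGTCA in a row with any 1 base between them, allowing up to 2 mismatches in the 12 fixed bases. Of 24206 genes with 1 promoter each 3.68% held a match, and of the 8289 tested genes among them 2.77%. Among genes that rose by 2-fold or more, 79 of 106 had exactly 1 promoter in the table and 9 of these (11.39%) held a match. Among 696 that rose by any amount the share was 5.03%, among 904 that fell 1.66%, and among 39 that fell by 2-fold or more 0 had one. These shares are descriptions with no test, a match is not a shown site, and the absence of one says only that these letters are not in this window. Matches stood in Crat, Fabp1, Acot4, Acot12, Dact2, Oat, Creb3l3, Pdzk1 and Tinagl1. Those in Fabp1, Acot4, Acot12, Pdzk1 and Tinagl1 had 1 mismatch and the others 2. The 250 bases upstream of the start are shown for the first 4 of these, 5′ to 3′ on the gene's strand with the match in capitals. The 4 were picked from fatty acid binding, thioesterases and a scaffold of membrane transporters, and Tinagl1 is left out.
Fabp1, chr4:104749090-104749339, plus strand: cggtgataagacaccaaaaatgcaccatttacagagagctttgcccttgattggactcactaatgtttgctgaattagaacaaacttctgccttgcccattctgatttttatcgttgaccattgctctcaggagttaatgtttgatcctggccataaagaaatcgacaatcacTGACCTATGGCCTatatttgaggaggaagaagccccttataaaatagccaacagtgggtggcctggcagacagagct
Acot4, chr6:109399604-109399853, plus strand: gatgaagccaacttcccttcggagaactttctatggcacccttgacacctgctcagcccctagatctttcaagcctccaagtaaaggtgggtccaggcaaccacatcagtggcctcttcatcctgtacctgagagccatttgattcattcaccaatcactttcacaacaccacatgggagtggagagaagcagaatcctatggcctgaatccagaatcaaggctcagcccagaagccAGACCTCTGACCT
Acot12, chr2:24721709-24721958, plus strand: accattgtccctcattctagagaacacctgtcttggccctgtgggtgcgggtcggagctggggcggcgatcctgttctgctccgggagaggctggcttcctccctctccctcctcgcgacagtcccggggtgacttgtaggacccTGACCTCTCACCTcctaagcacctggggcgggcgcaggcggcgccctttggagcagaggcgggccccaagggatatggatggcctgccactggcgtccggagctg
Pdzk1, chr2:187064745-187064994, plus strand: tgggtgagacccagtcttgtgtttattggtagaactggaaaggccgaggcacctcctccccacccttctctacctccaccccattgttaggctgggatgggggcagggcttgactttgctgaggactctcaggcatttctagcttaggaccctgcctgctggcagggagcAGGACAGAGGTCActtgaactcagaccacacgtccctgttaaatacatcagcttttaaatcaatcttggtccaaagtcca
The matches begin 77 bases before the start in Fabp1, 13 in Acot4, 105 in Acot12 and 80 in Pdzk1. Those in Fabp1, Acot4 and Acot12 read as the reverse complement and that in Pdzk1 as the repeat itself. Pdzk1 rose by 1.02 ± 0.11, from 10.66, 11.25, 11.30, 11.05 and 11.42 to 12.05, 12.10, 12.26, 12.18 and 12.16 with no overlap, beside the values of Fabp1 (1.62 ± 0.05), Acot4 (1.42 ± 0.09) and Acot12 (1.33 ± 0.09). Creb3l3, a membrane-bound transcription factor of fasting liver, rose by 1.13 ± 0.07.

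Droplet proteins and lipases gave 13 rises and 1 fall among 20 tested genes, with a median of 0.55. Both inhibitors of adipose triglyceride lipase rose, Hilpda (above) and G0s2 (1.41 ± 0.07), and so did the lipase itself, Pnpla2 (0.75 ± 0.09), its activator Abhd5 (0.45 ± 0.07, not called by its other probe set) and the monoglyceride lipase Mgll (1.24 ± 0.08). Angptl4, a secreted inhibitor of lipoprotein lipase, lay at 13.41, 13.27, 12.99, 13.15 and 13.06 in vehicle and 14.75, 14.74, 14.80, 14.64 and 14.72 at 250 µM, a change of 1.55 ± 0.06. Among droplet coats Plin5 (0.56 ± 0.13) and Cidea (0.60 ± 0.05) rose. Plin2, the main coat of hepatocyte droplets, lay at 15.39, 15.41, 15.42, 15.41 and 15.69 and 15.66, 15.71, 15.89, 15.68 and 15.96. The lowest treated well was just below the highest vehicle well, replicate 5, and the rise was 0.31 ± 0.07 (adjusted p = 0.00163). Pnpla3 was the one that fell.

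The glycerol route changed with the lipases. Aqp7 (1.24 ± 0.07), a glycerol channel best known from fat cells, glycerol kinase Gk (1.75 ± 0.07), and the cytosolic and mitochondrial glycerol-3-phosphate dehydrogenases Gpd1 (1.18 ± 0.09) and Gpd2 rose. Gk lay at 11.53, 11.30, 11.41, 11.34 and 11.13 and 13.03, 13.03, 13.11, 13.16 and 13.11, well apart. Aqp9, the main glycerol channel of hepatocytes, fell (-0.99 ± 0.12), from 10.94, 11.16, 11.25, 11.16 and 11.12 to 10.08, 10.40, 9.97, 10.01 and 10.22.

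Fatty acid synthesis and elongation moved apart. The genes that make palmitate from citrate fell, Acly (-0.56 ± 0.07), Acaca (-0.54 ± 0.07) and Fasn (-0.59 ± 0.12), with pyruvate kinase Pklr (-0.88 ± 0.10) and Mlxipl (-0.35 ± 0.10), the carbohydrate-responsive factor ChREBP. Acaca and Fasn each had another probe set that did not pass, while the other one of Pklr changed by -3.16 ± 0.38. Srebf1 (-0.18 ± 0.10), the insulin-responsive factor, and the desaturase Scd (0.15 ± 0.08) did not pass, although a dimmer probe set of Srebf1 did (-0.32 ± 0.11, adjusted p = 0.048). The mean over the probe sets of Srebf1 passed too, and Scd passed as a rise after quantile normalization. Of the elongases Elovl6 (0.91 ± 0.09) and Elovl1 (0.43 ± 0.07) rose and Elovl2 (0.12 ± 0.12) and Elovl5 (0.16 ± 0.06) did not pass. With the beta-actin ratio as a covariate and with only the arrays compared, Elovl5 passed as a rise. The desaturases Fads2 (0.66 ± 0.15) and Fads1 (0.61 ± 0.13) rose, as did malic enzyme Me1 (0.86 ± 0.11), a source of NADPH. In triglyceride synthesis Dgat1 (0.85 ± 0.07), Dgat2 (0.44 ± 0.05) and Agpat2 (0.28 ± 0.05) rose and Lpin1, the phosphatidate phosphatase, fell from 13.37, 13.61, 13.65, 13.72 and 13.74 to 12.38, 12.40, 12.34, 12.43 and 12.45, a change of -1.22 ± 0.10 with vehicle replicate 1 the lowest vehicle well. Of 24 tested genes in all 9 rose and 6 fell.

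Cholesterol synthesis genes moved to both sides in small steps. Of 20 tested genes 3 rose and 5 fell, with a median of 0.00. Sqle, squalene epoxidase (-0.42 ± 0.06), Ebp (-0.33 ± 0.07) and Pmvk (-0.28 ± 0.06) fell, and Hsd17b7 (0.54 ± 0.09), Insig1 (0.35 ± 0.05), which holds back the sterol sensor, and Sc5d (0.30 ± 0.06) rose. With arrays centred the falls were 3. Cyp7a1, which commits cholesterol to bile acids, fell from 9.70, 10.19, 9.86, 10.27 and 9.91 to 8.63, 8.67, 8.66, 8.98 and 8.77, 2.37-fold lower (-1.24 ± 0.13, adjusted p = 4.35e-09). Cyp27a1, the sterol 27-hydroxylase of the second route, fell (-0.74 ± 0.08), while Cyp8b1, which sets the cholic acid share, did not pass (-0.06 ± 0.08). The bile acid receptor Nr1h4, or FXR, rose (0.81 ± 0.07), as did the bile salt export pump Abcb11 (0.50 ± 0.10) and Abcg5 (1.02 ± 0.14), a subunit of the sterol exporter. Of the 15 genes of this list 3 rose and 7 fell, and 3 fell with arrays centred and 4 without vehicle replicate 5.

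More transporters of drugs and bile salts fell than rose, 5 against 1. The organic anion carriers Slco1a4 (-0.69 ± 0.12), Slco1a1 (-0.59 ± 0.16) and Slco1b2 (-0.55 ± 0.12) fell, as did the canalicular pump Abcc2 (-0.43 ± 0.08), while Abcg2 (0.40 ± 0.06) was the 1 of 13 tested that rose (2 without treated replicate 5). The second probe set of Slco1a4 did not pass (-0.43 ± 0.18). Among apolipoproteins Apoa5, which raises triglyceride clearance, fell from 13.28, 13.48, 13.67, 13.62 and 13.80 to 12.62, 12.56, 12.57, 12.61 and 12.57, a change of -0.98 ± 0.07. Mttp, which loads lipid onto apolipoprotein B, rose (0.83 ± 0.07), and so did the receptors Vldlr (0.69 ± 0.11) and Lrp1 (0.73 ± 0.14). Lcat, the cholesterol-esterifying enzyme of plasma, fell (-0.54 ± 0.08). Apoe (-0.09 ± 0.09), which binds those receptors, did not pass.

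Transcription factors of the liver moved modestly. The level of Ppara itself was too uneven to read, at 6.12, 8.42, 8.65, 7.95 and 9.07 in vehicle and 8.15, 9.04, 5.73, 9.05 and 9.14 at 250 µM, with a change of 0.18 ± 0.55 that did not pass (adjusted p = 0.881) and changed sign in 4 of the 10 fits that left out 1 array. Of 29 tested factors 4 rose (2 without vehicle replicate 2) and 7 fell. Cebpa (-0.35 ± 0.07), Cebpd (-0.88 ± 0.19) and Foxa3 (-0.51 ± 0.12), factors of liver identity and the acute phase, and Nr3c1 (-0.31 ± 0.06), the glucocorticoid receptor, fell, the last in 1 of its probe sets, and Cebpb (0.25 ± 0.06) rose. Nr1i2 (0.09 ± 0.06), the xenobiotic receptor PXR, did not pass.

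Cytochromes P450 of drug oxidation showed a mixed picture. Cyp2c6v1 rose from 13.84, 14.33, 14.32, 14.32 and 14.15 to 14.93, 14.94, 15.01, 14.93 and 15.02, a change of 0.77 ± 0.06, with vehicle replicate 1 the lowest well. Cyp3a2 (0.37 ± 0.09), Cyp3a18 (0.50 ± 0.12), Cyp2j4 (0.32 ± 0.07) and their reductase Por (0.42 ± 0.08) rose. Cyp2c12 (-0.68 ± 0.13) and Cyp2c11 (-0.38 ± 0.09) fell, and Cyp3a23-3a1 did not pass (0.07 ± 0.08) except after quantile normalization, where it rose. Members of these subfamilies are closely related, and cross-reading between their probe sets was not tested. Cyp1a1 (-0.42 ± 0.11) and Cyp1a2 (-0.29 ± 0.08), the targets of the dioxin receptor, fell with overlap between the groups, since vehicle replicate 1 read 14.08 for Cyp1a1 against 14.98 to 15.09 in the other vehicle wells. Without that well their changes were -0.61 ± 0.05 and -0.41 ± 0.05, and with arrays centred the call for Cyp1a2 was lost. In a fit of only the arrays compared, with that well kept, neither gene passed.

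In conjugation and defence, Gstp1 fell (-0.72 ± 0.06) and Gsta4, which removes lipid peroxidation products, rose by 0.55 ± 0.05. Aldh1a1 (0.78 ± 0.07), the retinal dehydrogenase, and Aldh3a2, the fatty aldehyde dehydrogenase, rose, while Aldh2 (-0.36 ± 0.05), which clears acetaldehyde, Aldh4a1 (-0.39 ± 0.08) and Aldh1l2 (-0.59 ± 0.12) fell. Gsto1 fell (-0.39 ± 0.06). Among 21 tested targets of NRF2, a transcription factor of the response to oxidants, 2 rose and 7 fell, and 3 fell with arrays centred. Me1 was one of the rises, and Srxn1 (-0.49 ± 0.07), Slc7a11 (-0.49 ± 0.09), the cystine carrier, and Akr7a3 (-0.35 ± 0.05) were among the falls. Hmox1 (0.05 ± 0.06), heme oxygenase, and Gclc (-0.09 ± 0.08), which makes glutathione, did not pass. Ugdh (-0.31 ± 0.05), which makes the donor for glucuronides, and Ugt2b10 (-0.42 ± 0.08) fell, and Ugt2b1 rose (0.32 ± 0.09).

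Glucose genes split by step. Pck1, which commits oxaloacetate to gluconeogenesis, rose by 1.19 ± 0.18, with the pyruvate carboxylase Pc (0.67 ± 0.13) and Fbp1 (0.52 ± 0.06). Glycogen synthase Gys2 (0.80 ± 0.08) and the glucokinase regulator Gckr (0.67 ± 0.08) rose. The transporter Slc2a2 (-0.28 ± 0.05), the glucose-6-phosphate carrier Slc37a4 (-0.50 ± 0.08) and fructokinase Khk (-0.39 ± 0.07) fell. Of 20 tested 5 rose and 9 fell.

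Nitrogen metabolism fell in part. In the urea cycle Otc (-0.74 ± 0.11), Ass1 (-0.63 ± 0.06) and Slc25a15 (-0.50 ± 0.07), the ornithine carrier, fell, whereas Slc25a13, the aspartate carrier, rose (0.29 ± 0.07). The first enzyme, Cps1, did not pass in its brighter probe set (-0.19 ± 0.08), but fell in the other (-0.73 ± 0.09). The brighter one passed without vehicle replicate 1 (-0.25 ± 0.07) and after quantile normalization, and the mean of both passed too. Ass1 lay at 15.52, 15.59, 15.63, 15.63 and 15.84 and 15.04, 14.95, 15.14, 14.89 and 15.05, with no overlap. Tat, the tyrosine aminotransferase induced by glucocorticoids, fell from 14.37, 14.31, 14.43, 14.30 and 14.44 to 13.19, 13.30, 13.34, 12.999 and 13.11, 2.27-fold lower (-1.18 ± 0.07, adjusted p = 2.77e-15). Other falls of amino acid breakdown were Gpt2 (-1.07 ± 0.12), Hal (-0.995 ± 0.15), Prodh (-0.90 ± 0.14) and, on the tryptophan route, Tdo2 (-0.74 ± 0.07), Kmo (-0.81 ± 0.11), Haao (-0.58 ± 0.10) and Acmsd (-0.67 ± 0.09). On the same route Kynu rose (0.30 ± 0.08). Ornithine aminotransferase Oat (1.19 ± 0.14) and the branched-chain genes Bcat2 (0.74 ± 0.13), Dbt (0.87 ± 0.09) and Hibch (0.42 ± 0.05) rose. Of 53 tested genes 11 rose and 17 fell.

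Of 19 tested genes of the tricarboxylic acid cycle 5 rose, led by Aco1 (1.06 ± 0.09), the cytosolic aconitase, and citrate synthase Cs (0.54 ± 0.08), with the succinyl-CoA ligase subunit Suclg1 (0.34 ± 0.04), and 2 fell, Idh2 (-0.43 ± 0.06) among them. The falls were 1 with arrays centred and without vehicle replicate 2, 3 or 5 or treated replicate 1, 4 or 5. The respiratory chain itself hardly moved. Of 68 tested subunits 7 rose and 0 fell, with a median of 0.03, and 1 rose with arrays centred, 4 without vehicle replicate 1 and 3 without treated replicate 3. The complex I subunits Ndufb8 (0.42 ± 0.10), Ndufa7 (0.20 ± 0.05) and Ndufb10 (0.18 ± 0.05) were among the rises, the last 2 not with arrays centred. Mitochondrial ribosomal proteins (4 up and 3 down of 71) and cytosolic ribosomal proteins (0 and 0 of 42) had lower shares than all tested genes, with Mrpl49 (0.51 ± 0.06) and, except with arrays centred, Mrps6 (0.31 ± 0.08) up and Mrps27 (-0.38 ± 0.10) down in 1 of its probe sets. For the mitochondrial ones 7 rose without treated replicate 5, and 2 rose and 1 fell with arrays centred. Among mitochondrial carriers Slc25a42, the CoA carrier, rose (1.52 ± 0.10) and Slc25a29 (-0.97 ± 0.12), Slc25a33 (-0.88 ± 0.13), Slc25a23 (-0.70 ± 0.15) and Slc25a24 (-0.68 ± 0.13) fell. Proteasome subunits rose in small steps, 14 of 39 among them Psmd2 (0.30 ± 0.06), Psmc4 (0.24 ± 0.05) and Psma1 (0.20 ± 0.05), but 4 with arrays centred and 18 without vehicle replicate 1. The subunits Psmb10 (-0.43 ± 0.15) and Psmd5 (-0.17 ± 0.06) fell. The falls were 0 with arrays centred, without vehicle replicate 1 or without treated replicate 4, and 1 without vehicle replicate 2 or 5 or treated replicate 2, 3 or 5.

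**Figure D4:**
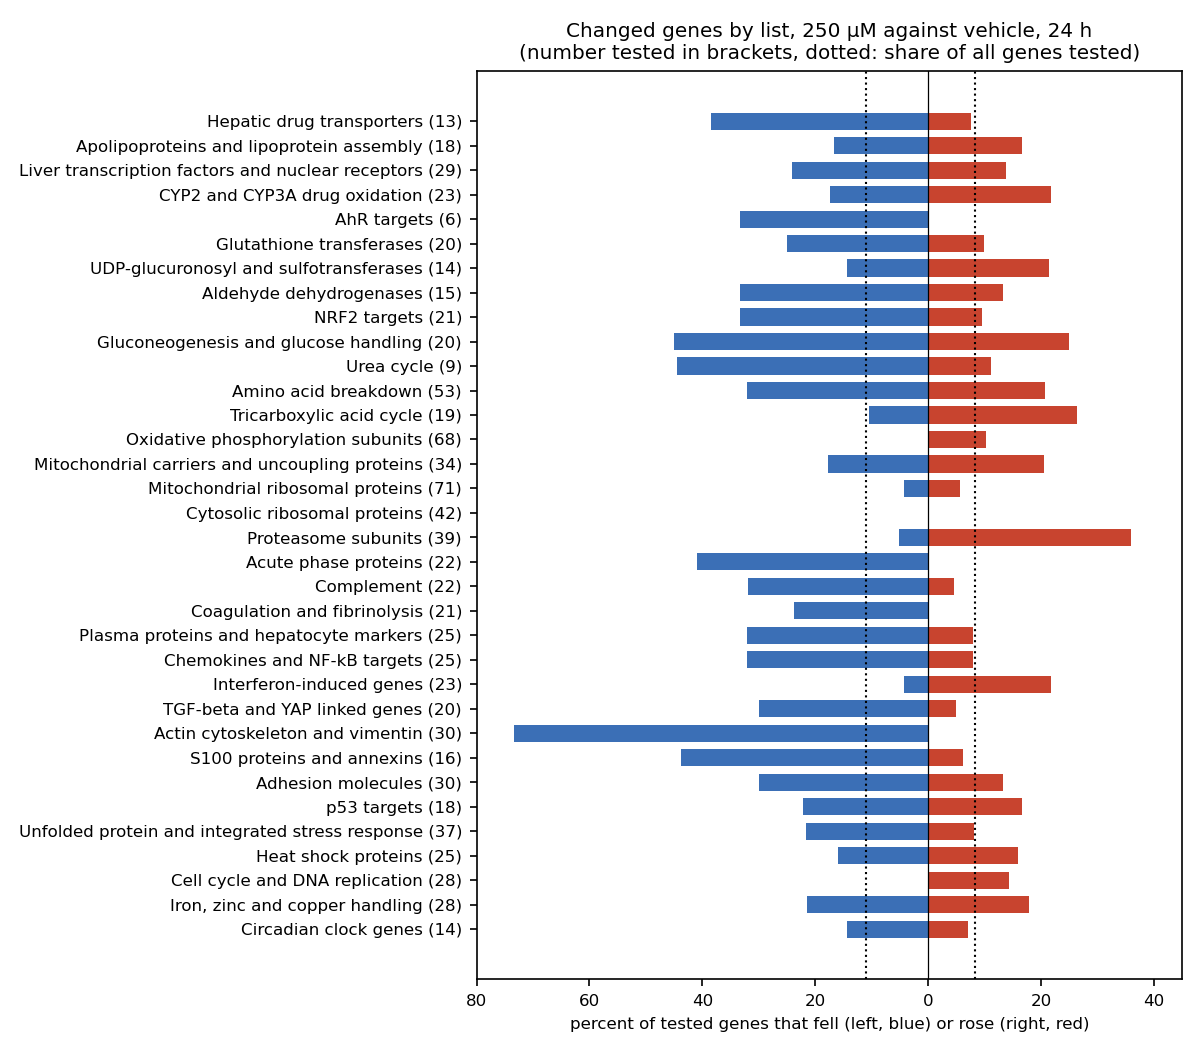
Share of the tested genes that fell (blue, left) or rose (red, right) in each list outside lipid metabolism, 250 µM against vehicle at 24 h, in percent, with the number tested in brackets and dotted lines at the shares of all tested genes (11% and 8.31%). Among the lists drawn, the actin cytoskeleton reaches furthest to the left, with 22 of 30 genes, and the proteasome furthest to the right, with 14 of 39.

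Acute phase genes and plasma proteins fell more often than they rose. Of 22 tested genes of the acute phase list 0 rose and 9 fell, with a median of -0.21. The falls include Steap4, Il6r and Il1r1, which are not secreted plasma proteins. Lbp, which presents bacterial lipopolysaccharide, lay at 13.37, 12.83, 12.83, 12.78 and 12.77 in vehicle and 11.91, 11.82, 11.95, 11.95 and 11.92 at 250 µM. It was 2.01-fold lower (-1.005 ± 0.08), and vehicle replicate 1 stood above the other vehicle wells. Receptors of the inflammatory cytokines fell, Il6r (-0.88 ± 0.12) and Il1r1 (-0.65 ± 0.11, in 1 of its probe sets), with the protease inhibitor Serpina3n (-0.61 ± 0.06) and ceruloplasmin Cp (-0.41 ± 0.08). Crp, C-reactive protein, did not pass (0.09 ± 0.08).

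The complement list had 7 falls and 1 rise among 22 tested genes, and 3 falls with arrays centred. C1r (-0.80 ± 0.12) and C1s (-0.60 ± 0.07), which start the classical cascade, and C3 (-0.38 ± 0.09), its centre, were lower and Cd46, a membrane regulator, was higher (0.63 ± 0.11). In coagulation Serpinf2 (-0.70 ± 0.08), the inhibitor of plasmin, F5 (-0.62 ± 0.09) and Proc (-0.39 ± 0.06) fell, with 5 falls of 21 tested and 11 without vehicle replicate 1. Fgb and Fga, counted in the acute phase list as well, were the others of the 5. Fetub (-0.35 ± 0.06), Hrg (-0.65 ± 0.08), Igfbp4 (-0.65 ± 0.12) and Ahsg (-0.29 ± 0.07) fell, Serpina7 (0.73 ± 0.14), which carries thyroid hormone, and Asgr1 (0.32 ± 0.06) rose, and albumin, Alb (-0.04 ± 0.12), did not pass.

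Inflammatory signalling genes had a median of -0.28, and without vehicle replicate 1 of -0.10. Of 25 tested 2 rose and 8 fell, with 5 falls with arrays centred or without treated replicate 5. Without vehicle replicate 1, 2 or 3 or treated replicate 1, 4 or 5 the rises were 1. Cxcl1 (-1.001 ± 0.18) and Cxcl16 (-0.91 ± 0.13), chemokines, Tnfaip3 (-0.58 ± 0.08), the A20 brake of NF-kB, and Rela (-0.47 ± 0.11), an NF-kB subunit, fell. Cxcl12 (0.78 ± 0.11), a chemokine that attracts stem cells and lymphocytes, rose. Il1r2, the decoy receptor of interleukin-1, changed by -0.76 ± 0.27 (adjusted p = 0.0421), but the call was lost with arrays centred and without vehicle replicate 2, 3 or 5 or treated replicate 1, 2 or 5, where the change was -0.79 to -0.64. It was lost too after quantile normalization, without the filter on low signals and without the mean-variance trend. Interferon-induced genes rose in 5 of 23 and fell in 1, with overlap between the groups for each, and Isg15 (0.53 ± 0.14), Irf7 (0.32 ± 0.09) and Ifi44 (0.36 ± 0.11) among the rises. Without vehicle replicate 1 the counts were 3 and 0, the rises were 3 with arrays centred or without vehicle replicate 2 or 5 and 2 without treated replicate 1 or 2, and the falls ranged from 0 to 2. The call for Ifi44 was lost without vehicle replicate 5, treated replicate 1 or treated replicate 2, where its change was 0.26 to 0.33.

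Among genes tied to TGF-beta and YAP, Ccn2 was joined by Ccn1 (-0.71 ± 0.17), a related matricellular protein, and Tgfbi (-0.58 ± 0.08), and by N-cadherin, Cdh2 (-0.87 ± 0.06). Id1, a target of BMP signals, rose from 9.81, 10.16, 10.18, 9.94 and 10.56 to 11.26, 11.06, 11.40, 11.06 and 10.96, a change of 1.02 ± 0.12. Of 20 tested genes 1 rose and 6 fell.

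The actin cytoskeleton had the largest share of falls. Of 30 tested genes 0 rose and 22 fell, 16 with arrays centred and 22 without vehicle replicate 1, and the median was -0.34. Vim, the intermediate filament vimentin, which appears in cultured hepatocytes and is abundant in mesenchymal cells, lay at 12.69, 13.31, 13.37, 13.44 and 13.45 in vehicle and 11.99, 11.98, 12.12, 11.90 and 11.84 at 250 µM. Treated wells were all lower (-1.28 ± 0.09), and vehicle replicate 1 was the nearest to them. Filamin Flna (-0.88 ± 0.18), tropomyosin Tpm4 (-0.71 ± 0.05), zyxin Zyx (-0.54 ± 0.12), ezrin Ezr (-0.52 ± 0.10), alpha-actinin Actn1 (-0.44 ± 0.12), nonmuscle myosin Myh9 (-0.41 ± 0.08) and the tubulins Tubb5 (-0.45 ± 0.08) and Tubb2a (-0.31 ± 0.05) fell as well. Profilin, Pfn1, did not pass (-0.03 ± 0.05). Cytosolic actin, Actg1, did not pass either (-0.20 ± 0.08) except without vehicle replicate 1 (-0.24 ± 0.08), without treated replicate 3, after quantile normalization and with sets of consecutive array numbers as a block.

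Cell contact genes fell beside them. E-cadherin, Cdh1, lay at 13.18, 13.26, 13.20, 13.15 and 13.01 in vehicle and 12.32, 12.17, 12.27, 12.12 and 12.22 at 250 µM, a change of -0.94 ± 0.08 with no overlap. Fibronectin Fn1 (-0.84 ± 0.07), laminin Lamc1 (-0.80 ± 0.12), the tight junction gene Cldn3 (-0.72 ± 0.08) and the gap junction gene Gjb1 (-0.62 ± 0.06) fell, while Gjb2 (0.34 ± 0.08), Itgb5 (0.41 ± 0.07) and Cdh13 (0.68 ± 0.12) rose. Of 30 tested 4 rose and 9 fell. In the S100 and annexin list 7 of 16 fell, among them S100a6 (-0.59 ± 0.08), S100a13 (-0.55 ± 0.09) and S100a10 (-0.26 ± 0.05), and 4 with arrays centred.

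Markers of other cells were set beside these falls. Of 18 stellate cell and myofibroblast markers on the array 9 were tested, and 0 rose and 2 fell, Vim and Acta2 (-0.46 ± 0.14). The call for Acta2 was lost without vehicle replicate 1 or treated replicate 1, 2 or 3, where its change was -0.42 to -0.39. It was lost too with only the arrays compared. The summed linear signal of the stellate cell and myofibroblast list was 21480 to 44600 in vehicle wells and 23280 to 26420 at 250 µM. Pdgfrb and Tagln lay under the limit in both groups. Bright genes weigh most in such a sum, here Lox and Vim (mean log2 14.25 and 13.25 in vehicle), and Vim is itself one of the falls. Col3a1, a fibrillar collagen, did not pass (0.20 ± 0.11). For the leukocyte and Kupffer cell list 0 of 10 tested genes passed in either direction, and the summed signal was 25090 to 32070 and 26550 to 29320. Eng was the 1 of 4 tested endothelial markers that rose (0.64 ± 0.21), a call lost without vehicle replicate 1 or 3 or treated replicate 1 or 5, where its change was 0.47 to 0.65. Pecam1, given above, was too low over all 30 arrays to be tested. The endothelial sum was 3311 to 4972 in vehicle and 4171 to 4910 at 250 µM, and the cholangiocyte sum 11240 to 12160 and 10830 to 11590. Cd14 and Lyz2 (mean log2 13.85 and 12.97 in vehicle) weighed most in the leukocyte and Kupffer cell sum. Epcam (13.37) weighed most in the cholangiocyte sum. The part of other cells in the falls was not tested.

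Of 37 genes of the unfolded protein and integrated stress responses 3 rose and 8 fell, 5 with arrays centred. Of all tested genes 8.31% rose and 11% fell, and 6.13% and 6.48% with arrays centred. The hormone Fgf21 (0.52 ± 0.11), Psat1 (0.28 ± 0.05) and Vldlr rose, Hsp90b1 (-0.40 ± 0.06), a chaperone, Edem1 (-0.38 ± 0.06) and Atf3 (-0.49 ± 0.12) fell, and Hspa5 (0.04 ± 0.05), Atf4 (-0.10 ± 0.05) and Xbp1 (0.07 ± 0.05) did not pass. Heat shock genes gave 4 rises and 4 falls (2 with arrays centred) of 25, with Dnajb3, Stip1 (0.33 ± 0.08) and Dnaja1 (0.23 ± 0.05) up and Hspb1 (-0.42 ± 0.11), Cryab (-0.32 ± 0.08) and Hspb8 (-0.25 ± 0.05, in 1 of its probe sets and not with arrays centred) down. Beside Sesn1 the p53 targets Ccng1 (-0.54 ± 0.06), Bbc3 (-0.47 ± 0.09) and Tp53inp1 (-0.44 ± 0.10) fell, Gadd45b (0.37 ± 0.07) and Ddit4 (0.30 ± 0.08) rose, and Cdkn1a (-0.26 ± 0.11) and Mdm2 (0.09 ± 0.07) did not pass. The other probe set of Cdkn1a fell (-0.34 ± 0.11, adjusted p = 0.027). So did the mean of both, and the brighter one passed with the beta-actin ratio as a covariate and with only the arrays compared.

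Of 28 tested cell cycle and replication genes 4 rose and 0 fell (1 without vehicle replicate 3 or 5). Beside Spc24 these were cyclin D1, Ccnd1, which lay at 9.45, 9.05, 9.62, 9.06 and 9.21 and 10.57, 10.53, 10.56, 10.63 and 10.23 (1.22 ± 0.11), Mcm10 (0.58 ± 0.11, in 1 of its probe sets), which starts replication forks, and Cdk2 (0.49 ± 0.13). Of the 46 listed genes on the array 28 were tested, the others having low signals. Metal handling gave 5 rises and 6 falls of 28, the iron importers Slc39a14 (-0.76 ± 0.09) and Tfrc (-0.55 ± 0.08) falling. Of 14 clock genes Hlf rose (0.97 ± 0.09), and Per2 (-0.38 ± 0.13) and Bhlhe40 (-0.22 ± 0.08) fell with overlap. Both calls were lost with arrays centred, after quantile normalization and without the filter on low signals. That for Per2 was also lost without vehicle replicate 2 or 3 or treated replicate 1, 2 or 3 (-0.38 to -0.31). That for Bhlhe40 was also lost without vehicle replicate 2, 3, 4 or 5 or treated replicate 1, 2 or 3 (-0.24 to -0.19). The Bhlhe40 call was lost too without the mean-variance trend and with only the arrays compared.

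Dose was compared directly at 24 h, since both doses share the vehicle wells. Between 1000 and 250 µM 2 of 10528 genes differed (0.019%, limma, smallest adjusted p = 0.0207), and 335 had an unadjusted p under 0.05. Both were interferon-induced and lower at 1000 µM. Isg15, a ubiquitin-like protein, lay at 11.39, 11.17, 11.33, 11.04 and 10.59 in vehicle, 11.77, 11.93, 11.71, 11.35 and 11.39 at 250 µM and 10.65, 10.91, 11.08, 10.84 and 10.88 at 1000 µM, with no overlap between the doses, and 1000 minus 250 µM was -0.76 ± 0.14. Mx2, a GTPase against viruses, lay at 10.56, 10.90, 11.04, 10.70 and 10.50, 10.87, 10.95, 10.07, 10.59 and 10.59 and 9.84, 9.73, 9.81, 9.50 and 9.82, and 1000 minus 250 µM was -0.88 ± 0.16. The number of differing genes was 0 with arrays centred and 0 to 3 when 1 array was left out. For the leading genes the difference between doses and its SE were -0.37 ± 0.24 for Acot1, -0.72 ± 0.30 for Ucp2, -0.14 ± 0.14 for Ehhadh, 0.05 ± 0.08 for Cyp4a1, -0.17 ± 0.12 for Pdk4, -0.13 ± 0.08 for Hilpda, -0.04 ± 0.05 for Fabp1 and 0.20 ± 0.10 for Ccn2, none of which passed (adjusted p = 1.0 for each).

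Time was compared as the effect at 48 h minus the effect at 24 h, each against its own vehicle. The 2 effects differed for 880 genes (8.36%, with 404 or 3.84% more positive at 48 h and 476 or 4.52% more negative), and for 2505 at an unadjusted p under 0.05. The vehicle wells at 48 h stood apart in RNA quality, with beta-actin 3'/5' log2 ratios of 2.44, 1.74, 1.70, 1.04 and 1.66 against 1.04 to 1.27 in vehicle at 24 h. With that ratio as a covariate 248 genes differed, with arrays centred 150, and without vehicle replicate 4 at 48 h, the one with the low ratio, 1789. What the RNA quality of those wells adds to the differences was not tested.

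Fabp1 rose by 1.62 at 24 h and by 2.64 ± 0.05 at 48 h, a difference of 1.02 ± 0.07 (adjusted p = 1.91e-11), and Spc24 by 3.64 ± 0.09 at 48 h (difference 1.13 ± 0.13). For Ucp2 the vehicle mean at 24 h was under the limit, so its effects at the 2 times were not compared. Cyp3a2, the largest positive difference, lay at 12.52, 12.59, 12.87, 12.58 and 12.46 in vehicle and 12.92, 12.91, 12.97, 13.06 and 13 at 250 µM after 24 h, and at 10.47, 10.61, 10.26, 10.34 and 10.82 and 12.33, 12.29, 12.39, 12.26 and 12.34 after 48 h. Its vehicle signal was lower by about 2 log2 units at 48 h while the treated signal moved by less than 1. Il1r2, with the most negative fitted difference, lay at 11.13, 11.13, 10.91, 11.05 and 11.14 in vehicle and 6.92, 6.50, 8.29, 5.81 and 7.21 at 250 µM after 48 h, where 4 of the 5 treated wells were under the limit. With the treated mean set to the limit the difference was -2.43, a bound. Btc (1.45 ± 0.42), a growth factor, and Tdh (1.44 ± 0.32), threonine dehydrogenase, were more positive at 48 h. Their vehicle means at 48 h, 7.92 and 7.90, lay just above the limit. The vehicle wells of Btc at 48 h read 7.27, 7.14, 8.76, 9.28 and 7.13, overlapping the treated wells at 8.63 to 9.40. Syn1 and Mul1 were more negative, and since their treated means at 48 h (7.38 and 7.37) were under the limit only bounds of -1.60 and -1.48 are given. The 24 h changes of these 4 genes did not pass. Isg15, higher at 250 µM after 24 h, was lower after 48 h (-0.87 ± 0.14, difference -1.40 ± 0.19).

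**Figure D5:**
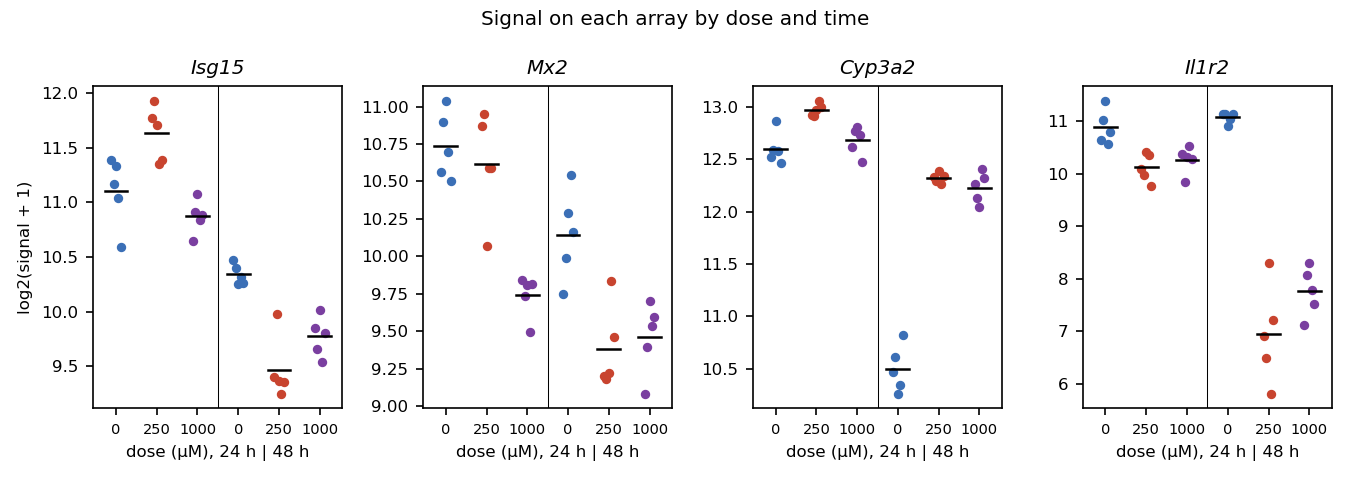
Log2 signal (vertical axis) on each of the 5 arrays of every group for 4 genes, by dose in µM and time (24 h left and 48 h right of the line), blue for vehicle, red for 250 µM and purple for 1000 µM, with group means as bars. Isg15 at 24 h has its highest mean at 250 µM, with all wells at 1000 µM below it, and the vehicle wells of Cyp3a2 at 48 h lie below those of every other group.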

How the data were processed

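Per the labels' protocols, RNA from each well was biotin-labelled and hybridised to its own array. The deposited values are probe set intensity signals on a linear scale that the authors made with MAS5, per the submitters' processing notes, whose version they do not give. The trimmed mean signal was 1500.6 to 1500.7 on every array, so arrays were already scaled. Here log2(signal + 1) was taken, 57 control probe sets and the dimmest 40% by mean were left out, and probe sets with exactly 1 gene were kept, with the highest-mean one per gene. Of 31099 probe sets 20832 had 1 gene, 436 several and 9774 none. limma 3.58.1 in R 4.3.3 fitted 6 group means over 30 arrays with a mean-variance trend, after being tested on simulated data. Replicates are separate wells, so p-values measure the spread between wells, and the number of arrays limits precision.

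Members, tests and 53 gene lists were chosen with earlier results of these data known. Genes were named by a rule (the 12 largest rises and 12 largest falls with no overlap, up to 3 changed genes per list with the smallest p, a fixed set, and the 3 largest dose and time differences each way), and other genes were chosen after their values were seen. Of 323 named genes 76 had several passing probe sets, 0 with opposite calls, and for 13 no other probe set passed. Where a group mean lay under the low-signal limit, a fold is a bound from that limit. Figures were drawn with matplotlib 3.10.9. Alternatives covered centring, quantile normalization, pseudocount, filters, probe set choice, quality covariate, leaving out each array and, added after seeing the data, sets of consecutive array numbers as a block.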

Additional observations from a re-analysis of the deposited data

Results flagged for a closer look

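A single array stood apart, with a gap to its nearest neighbour above Dixon's critical value of 0.71 for 5 samples, in 47 of 652 groups of 5 log2 signals screened over the named genes. Chance flags about 1 in 20 groups. Of these arrays 26 were vehicle replicate 1, 5 other vehicle wells and 16 wells at 250 µM. Vehicle replicate 1 read below the other 4 vehicle wells for Cyp1a1 (14.08 against 14.98 to 15.09), Cyp1a2 (13.33 against 13.89 to 14.04), Cyp3a18 (11.69 against 12.61 to 12.78), Dbt (12.33 against 12.83 to 12.99), Ddit4 (12.45 against 12.86 to 12.99), Ephx2 (13.11 against 13.50 to 13.59) and Etfdh (13.15 against 13.45 to 13.52). It was likewise low for Gsta4 (13.69 against 13.96 to 14.06), Idh2 (13.23 against 13.56 to 13.66), Oat (12.03 against 12.97 to 13.15), Pc (11.10 against 11.69 to 11.83), Pex11a (13.22 against 13.40 to 13.42), Phyh (15.24 against 15.58 to 15.70) and Sesn1 (11.54 against 12.12 to 12.26). It was likewise low for Slc25a13 (13.65 against 14.09 to 14.14), Slc37a4 (14.30 against 14.84 to 15.02) and Vim (12.69 against 13.31 to 13.45). Vehicle replicate 1 read above the other 4 vehicle wells for C1r (12.99 against 12.17 to 12.37), Ccng1 (13.80 against 13.38 to 13.47), Fads1 (11.41 against 10.49 to 10.72), Gstp1 (14.98 against 14.54 to 14.64), Hspb1 (13.19 against 12.39 to 12.60), Lbp (13.37 against 12.77 to 12.83) and Psmb10 (11.47 against 10.40 to 10.61). It was likewise high for Slc25a24 (12.92 against 11.74 to 12.03) and Srebf1 (12.02 against 11.70 to 11.73).

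In treated replicate 5 the signal stood apart for Acsl5 (high at 13.79 against 13.40 to 13.47), Adh4 (high at 11.94 against 11.68 to 11.75), Ccnd1 (low at 10.23 against 10.53 to 10.63), Ccng1 (low at 12.88 against 12.97 to 13), Cyp4f1 (high at 14.17 against 13.69 to 13.78), Hrg (high at 14.33 against 14.03 to 14.08) and Sesn1 (low at 10.33 against 10.51 to 10.56). In treated replicate 4 the signal stood apart for Aldh4a1 (low at 11.12 against 11.25 to 11.28), C1r (low at 11.40 against 11.66 to 11.71), G0s2 (low at 14.29 against 14.46 to 14.51) and Pdk4 (low at 15 against 15.17 to 15.22). In treated replicate 2 the signal stood apart for Dnajb3 (low at 8.86 against 9.23 to 9.26). In treated replicate 3 the signal stood apart for Gsta4 (high at 14.60 against 14.45 to 14.49), Mttp (low at 14.10 against 14.17 to 14.18) and Pex2 (low at 13.01 against 13.07 to 13.09). In vehicle replicate 4 the signal stood apart for Mpv17 (high at 13.68 against 13.47 to 13.50). In vehicle replicate 2 the signal stood apart for Ndufb8 (low at 11.39 against 11.49 to 11.51), Pdk3 (low at 8.42 against 8.96 to 9.12) and Pex16 (high at 11.89 against 11.48 to 11.58). In vehicle replicate 5 the signal stood apart for Plin2 (high at 15.68 against 15.39 to 15.42). In treated replicate 1 the signal stood apart for Syn1 (low at 8.23 against 8.97 to 9.25).

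The effect of 250 µM differed between 48 and 24 h (limma, adjusted p under 0.05 for the difference, SE after each value) for 83 of the 323 named genes, where 8.36% of all tested genes differed. Some genes were named for this difference and others for their change at 24 h, so the 2 shares cannot be weighed against each other. With the beta-actin ratio as a covariate 214 of the 880 genes with a time difference still passed. On the log2 scale the effect was more positive at 48 h for Cyp3a2 (1.45 ± 0.12), Btc (1.45 ± 0.42), Tdh (1.44 ± 0.32), Spc24 (1.13 ± 0.13), Fabp1 (1.02 ± 0.07), Aqp7 (0.91 ± 0.10), Bdh1 (0.86 ± 0.17), Pnpla3 (0.81 ± 0.25) and Cyp3a18 (0.80 ± 0.17). Smaller positive differences were those of Fads1 (0.76 ± 0.18), Acot8 (0.72 ± 0.10), Acmsd (0.70 ± 0.12), Hao1 (0.69 ± 0.14), Otc (0.67 ± 0.16), Cyp8b1 (0.65 ± 0.12), Acot12 (0.64 ± 0.13), Crp (0.63 ± 0.11) and Abcg5 (0.63 ± 0.20). Smaller positive differences were those of Cxcl12 (0.56 ± 0.16), Pdzk1 (0.54 ± 0.15), Asgr1 (0.53 ± 0.08), Mpc1 (0.52 ± 0.11), Decr2 (0.50 ± 0.11), Tp53inp1 (0.50 ± 0.14), Mpc2 (0.47 ± 0.08), Gjb1 (0.47 ± 0.09) and Haao (0.46 ± 0.14). Smaller positive differences were those of Cebpa (0.44 ± 0.10), Kynu (0.42 ± 0.11), Gsta4 (0.41 ± 0.07), Cyp2c6v1 (0.41 ± 0.09), Etfa (0.39 ± 0.09), Acads (0.38 ± 0.09), Cebpb (0.38 ± 0.09), Hacl1 (0.36 ± 0.12) and Hibch (0.35 ± 0.06). Smaller positive differences were those of Aldh4a1 (0.35 ± 0.11), Acot13 (0.34 ± 0.09), Slc25a20 (0.34 ± 0.10), Khk (0.32 ± 0.10), Hmox1 (0.32 ± 0.08), Pmvk (0.32 ± 0.09), Acadm (0.32 ± 0.08), Acat1 (0.30 ± 0.09) and Pdhb (0.28 ± 0.08). Smaller positive differences were those of Agpat2 (0.27 ± 0.08), Akr7a3 (0.26 ± 0.07), Psma1 (0.25 ± 0.07) and Suclg1 (0.23 ± 0.06). On the log2 scale the effect was more negative at 48 h for Il1r2 (-3.36 ± 0.38), Syn1 (-2.10 ± 0.48), Mul1 (-1.99 ± 0.47), Ucp2 (-1.77 ± 0.42), Isg15 (-1.40 ± 0.19), S100a6 (-0.997 ± 0.11), Slc7a11 (-0.82 ± 0.13), Steap4 (-0.79 ± 0.16) and Irf7 (-0.69 ± 0.12). Smaller negative differences were those of Fn1 (-0.67 ± 0.09), C1s (-0.65 ± 0.10), Cryab (-0.61 ± 0.12), Lamc1 (-0.59 ± 0.17), Ahsg (-0.58 ± 0.10), Cp (-0.57 ± 0.12), Apoa5 (-0.56 ± 0.10), Ccng1 (-0.56 ± 0.09) and C3 (-0.54 ± 0.12). Smaller negative differences were those of Cdkn1a (-0.52 ± 0.15), Serpina3n (-0.51 ± 0.08), Vldlr (-0.49 ± 0.15), Abcb11 (-0.47 ± 0.14), Cyp4a1 (-0.44 ± 0.12), Cyp2c11 (-0.42 ± 0.12), Vim (-0.42 ± 0.13), Myh9 (-0.41 ± 0.12) and Abcc2 (-0.40 ± 0.11). Smaller negative differences were those of Itgb5 (-0.38 ± 0.10), Cs (-0.37 ± 0.11), Cyp1a2 (-0.36 ± 0.11), Cdh2 (-0.31 ± 0.09), Tpm4 (-0.26 ± 0.08), Dgat2 (-0.26 ± 0.08) and Txnip (-0.24 ± 0.07). For Il1r2, Syn1 and Mul1 the treated mean at 48 h and for Ucp2 the vehicle mean at 24 h lay under the low-signal limit, so these 4 fitted values are no measured differences. With those means set to the limit they were -2.43, -1.60, -1.48 and 0.0565, so that for Ucp2 no direction can be given. For Btc and Tdh the vehicle means at 48 h, 7.92 and 7.90, lay just above the limit. The vehicle wells at 48 h had higher beta-actin 3'/5' ratios than those at 24 h in 4 of 5 cases, and their part in these differences was not tested.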

How the results depend on the processing

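The 2030 changed genes at 250 µM became 1327 with each array centred on its median, and lay between 1831 and 1953 when 1 array was left out and between 1823 and 2232 under the other settings tried. For 1000 against 250 µM the 2 genes became 0 with centring and 0 without the mean-variance trend, 1 with the mean over probe sets, 3 after quantile normalization and 4 with only the arrays compared, and lay between 0 and 3 when 1 array was left out. The 880 genes with a time difference became 150 with centring and 248 with the beta-actin ratio as a covariate, and lay between 609 and 1789 when 1 array was left out, the highest without vehicle replicate 4 at 48 h. The cause of these shifts was not tested. The difference in array median between 250 µM and vehicle ranged from -0.0649 to 0.0206 when 1 array was left out, with the sign turned without vehicle replicate 5 (0.0206) and without treated replicates 1 (0.00391) and 3 (0.00468), that in the beta-actin ratio from -0.0105 to 0.0468, turned without vehicle replicate 1 (-0.00864) and treated replicate 3 (-0.0105), and that in the Gapdh ratio from -0.0287 to -0.0143. Among named genes the sign turned for 4 not called at 250 µM against vehicle in any setting. Alb turned to 0.0217 after quantile normalization and to 0.0798 without vehicle replicate 5, and ranged from -0.112 to 0.0798 when 1 array was left out. Mx2 turned to 0.00874 without treated replicate 3 (range -0.211 to 0.00874). Des turned without vehicle replicates 1 (-0.0627) and 3 (-0.0400) and treated replicates 2 (-0.0410) and 5 (-0.0759), with a range of -0.0759 to 0.104. Ppara turned without vehicle replicate 1 (-0.299) and treated replicates 2 (-0.0227), 4 (-0.0236) and 5 (-0.0469), with a range of -0.299 to 0.805. Of 323 named genes 310 kept direction and side of the threshold with centring. With only the arrays compared the calls for Acta2, Bhlhe40, Cyp1a1, Cyp1a2, Mrps27, Psmb10 and Ugt2b1 were lost. Genes whose mean lay under the low-signal limit in one group have no measured fold. The labels carry no replicate numbers, but the array numbers in the titles run in 5 sets of 6 that each hold every group once, and the set was added as a block after seeing the data. Deviations of the vehicle and treated wells of a set correlated at 0.0253 to 0.223 across genes, over 0.1 in 2 of the 5 sets. Of the 5 vehicle wells 4 correlated best with the treated well of their own set, that of set 1 in a tie at 0.0253. The labels state no pairing, so the main fit did not use the sets, and whether their wells are paired was not tested. With the set as a replicate block the 3 counts were 2119, 2 and 1041, and of the named genes Actg1 changed its call.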
